A study of Mus musculus with 30 samples.

Results

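The 10 mature neutrophil granule genes S100a8, S100a9, Ngp, Camp, Ltf, Lcn2, Retnlg, Cd177, Padi4 and Trem3 were followed in RNA from sorted mouse microglia, macrophages that live in the brain and spinal cord. They were taken by name, 10 of 46078 genes in the count table, and each symbol matched 1 Ensembl identifier. The study compared microglia with and without Atg7, an enzyme needed to form autophagosomes, and microglia of old mice, before and during experimental autoimmune encephalomyelitis (EAE), an induced autoimmune inflammation of the central nervous system. There were 30 libraries in 8 groups. Naive wild-type (WT), naive knockout (KO) and naive old mice gave 4 libraries each. The EAE groups were day 21 WT (3 libraries), day 21 KO (4), day 35 WT (4), day 35 KO (4) and day 35 old (3). Libraries are named below by group and replicate, as in day 35 old 1.

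All mice were C57BL/6. The KO genotype is given as Atg7fl/fl Cx3cr1CreERT. The WT genotype is given as Atg7wt/wt Cx3cr1CreERT2, so a Cre driven from Cx3cr1, a gene of microglia and other mononuclear phagocytes, was present in both. These mice had received 3 doses of 4 mg tamoxifen at intervals of 48 h, at least 18 days ahead of EAE. Immunisation used rmMOG, the recombinant myelin protein (residues 1 to 125), with pertussis toxin. The labels give age as young or old with no number, and call the old mice ATG7_WT. Their Cre and tamoxifen status is not stated. Cells were gated as live, CD11b+, CD45 intermediate and Ly6G-, and/or as eYFP+, and female and male samples were mixed 1:1. The authors' sample table lists 1 animal number for 10 of the libraries and 2 for the other 20. A library of 1 animal cannot hold that 1:1 mix, and the sex of single libraries was not examined here. All naive old libraries list 1 and all naive WT and day 35 WT libraries list 2. This number and age thus cannot be told apart in naive old against WT. Day 35 old 1 and 2 list 1 animal number and day 35 old 3 lists 2. No animal number is listed for more than 1 library. The labels do not say that the replicates of a group came from separate sorts. The p-values thus measure only the spread between these samples, part of which may be technical. The library day 35 WT 3 is WT by its title and KO by its knockout status. It was kept as WT, and results that change when it is moved to day 35 KO are given.

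Neutrophils are short-lived granulocytes of blood and bone marrow that fill their granules in order as they mature: primary granules first, then secondary (specific) granules, then gelatinase granules. The secondary granule proteins are made mainly in bone marrow precursors, and their transcripts decline in circulating cells, while the calprotectin subunits S100A8 and S100A9 stay abundant in the cytosol. Resident microglia are not known as a main source of these proteins. S100a8 and S100a9 are also expressed by monocytes, and Lcn2 by astrocytes in inflammation.

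The members lie on 7 chromosomes of build GRCm38, and none overlaps another annotated gene. S100a8 (ENSMUSG00000056054, chromosome 3, 90668978 to 90670035) and S100a9 (ENSMUSG00000056071, chromosome 3, 90692632 to 90695721) are neighbours on opposite strands, 22596 bp apart. Camp (ENSMUSG00000038357, 109847379 to 109849617), Ngp (ENSMUSG00000032484, 110419747 to 110423012) and Ltf (ENSMUSG00000032496, 111019271 to 111042767) lie along chromosome 9 with gaps of 570129 and 596258 bp. The others are Lcn2 (ENSMUSG00000026822, chromosome 2, 32384633 to 32388252), Retnlg (ENSMUSG00000022651, chromosome 16, 48872621 to 48874496), Cd177 (ENSMUSG00000052212, chromosome 7, 24743983 to 24760311), Padi4 (ENSMUSG00000025330, chromosome 4, 140745865 to 140774236) and Trem3 (ENSMUSG00000041754, chromosome 17, 48247777 to 48258841).

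Promoter sequences of some members are shown. The members moved together across the libraries although they are scattered over the genome, and a part of their promoters in this was not tested. Retnlg is included as the member that departed most from the rest. The sequences come from RefSeq (build GRCm38.p6), where 9 of the 10 members had an entry of 300 bases, from 250 before to 50 after the gene's RefSeq start. C/EBP factors, among them C/EBP epsilon of maturing neutrophils, bind a palindrome-like site. A loose form of it, TTNNGNAA on either strand, is in capitals.
S100a8 (chr3:90668821-90669120, plus strand): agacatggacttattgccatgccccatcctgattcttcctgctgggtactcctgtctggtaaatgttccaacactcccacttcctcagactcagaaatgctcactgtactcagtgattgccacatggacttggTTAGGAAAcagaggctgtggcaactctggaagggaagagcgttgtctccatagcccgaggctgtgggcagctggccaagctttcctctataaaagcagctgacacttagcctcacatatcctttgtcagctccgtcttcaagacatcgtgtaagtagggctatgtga
S100a9 (chr3:90695672-90695971, minus strand): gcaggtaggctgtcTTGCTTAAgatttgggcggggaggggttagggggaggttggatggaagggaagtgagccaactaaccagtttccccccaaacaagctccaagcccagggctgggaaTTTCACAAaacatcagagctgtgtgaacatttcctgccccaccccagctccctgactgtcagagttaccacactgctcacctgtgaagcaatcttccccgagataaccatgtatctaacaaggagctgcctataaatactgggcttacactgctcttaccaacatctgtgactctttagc
Ngp (chr9:110419558-110419857, plus strand): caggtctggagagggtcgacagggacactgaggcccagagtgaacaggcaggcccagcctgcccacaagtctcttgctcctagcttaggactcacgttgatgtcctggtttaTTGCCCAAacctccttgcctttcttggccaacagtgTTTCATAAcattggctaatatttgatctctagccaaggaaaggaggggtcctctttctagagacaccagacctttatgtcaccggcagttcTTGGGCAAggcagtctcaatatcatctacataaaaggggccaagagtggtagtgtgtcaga
Ltf (chr9:111019042-111019341, plus strand): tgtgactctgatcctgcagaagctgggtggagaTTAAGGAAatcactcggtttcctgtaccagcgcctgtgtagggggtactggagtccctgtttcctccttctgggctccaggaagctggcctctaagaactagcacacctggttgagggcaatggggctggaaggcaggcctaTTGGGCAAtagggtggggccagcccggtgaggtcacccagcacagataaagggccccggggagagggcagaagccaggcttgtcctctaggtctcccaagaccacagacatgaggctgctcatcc
Retnlg (chr16:48872358-48872657, plus strand): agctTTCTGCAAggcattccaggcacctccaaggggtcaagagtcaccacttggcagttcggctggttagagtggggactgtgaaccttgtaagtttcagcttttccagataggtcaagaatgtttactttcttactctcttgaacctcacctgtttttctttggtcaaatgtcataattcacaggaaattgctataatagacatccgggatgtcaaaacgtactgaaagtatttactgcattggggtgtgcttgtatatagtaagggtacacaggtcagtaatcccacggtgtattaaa
This motif was found in 7 of the 9 windows, in all but those of Camp and Padi4, and in 40.7% of all 32851 promoters of the table. Every sequence shown holds it, and the windows of Camp, Padi4, Lcn2 and Cd177 are not shown. Ngp held 3 matches and S100a9 and Ltf 2 each. TATAAA on either strand was found in 4 of the 9 windows and in 13.6% of all promoters, and GAGGAA, the core of a PU.1 site, in 4 and in 28.3%. The motifs can overlap one another, and a match of letters was not tested for binding.

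The libraries held 4712803 to 11034565 counts, with a median of 6769302. A list of 10 microglial markers summed to between 9099 and 30543 CPM (counts divided by each library's TMM-adjusted size, so that libraries of unequal depth can be compared) in each library, and all 10 were detected well enough to be tested. Its lowest values were those of day 35 old 1 (9099 CPM), the day 21 KO libraries (9675 to 10261 CPM) and day 35 KO 4 (12573 CPM). Atg7, the targeted gene, was at 11.4 to 31.8 CPM in naive KO and 26.6 to 40.1 in naive WT, and at 30.3 to 33.8 in day 35 KO and 21.3 to 23.8 in day 35 WT. It did not pass the edgeR test in any KO against WT comparison (lowest adjusted p 0.303), and where the deleted part lies within it was not analysed here. In bulk samples of this kind, fewer cells of a type and less RNA per cell cannot be told apart.

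The 10 genes together ranged from 3.91 CPM in day 35 WT 3 to 31722 CPM in day 35 old 1, an 8105-fold span. They took 2.89% of all counts in day 35 old 1 (95% Wilson interval 2.88 to 2.91, counting error only) and 0.000387% in day 35 WT 3. The sum exceeded 1000 CPM in 14 libraries and was below 100 in 12. The highest library of a group held from 1.92 times (naive old) to 471 times (day 35 old) the sum of its lowest.

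**Figure D1:**
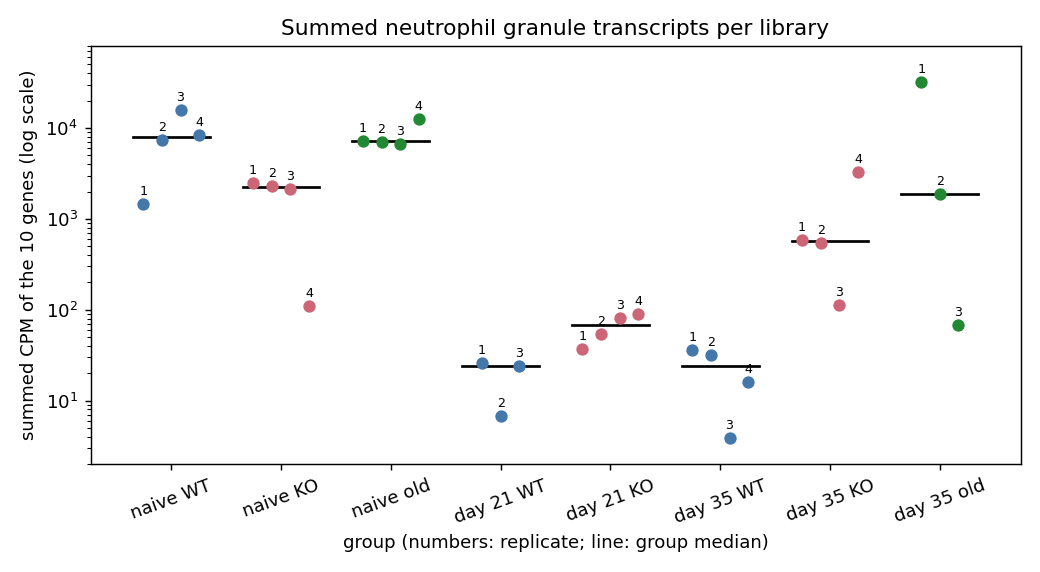
Summed level of the 10 genes in CPM on a log axis, with 1 numbered point per library (blue WT, red KO, green old) and a line at each group's median. Naive WT and naive old libraries lie at 1456 to 15931 CPM, day 21 and day 35 WT libraries at 3.91 to 35.7 CPM, and the 3 day 35 old libraries spread from 67.3 to 31722 CPM.

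In naive mice the sum was 1456, 7335, 15931 and 8472 CPM in WT 1 to 4, and 7225, 7044, 6613 and 12668 CPM in old 1 to 4. In naive KO it was 2460, 2309, 2135 and 111 CPM. Naive KO 1 to 3 lay close together and within the range of the other naive libraries, above naive WT 1, while naive KO 4 was 22.1-fold below naive KO 1. Day 21 WT libraries held 25.8, 6.74 and 24.2 CPM and day 21 KO libraries 36.7, 54.4, 80.8 and 89.9 CPM, so the groups did not overlap although both were low. At day 35 the sum was 35.7, 31.5, 3.91 and 16.02 CPM in WT and 589, 547, 112.2 and 3312 CPM in KO. In day 35 old it was 31722, 1868 and 67.3 CPM, which places day 35 old 1 16.98-fold above the next library and 471-fold above day 35 old 3.

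By median the order was naive WT (7904 CPM), naive old (7134), naive KO (2222), day 35 old (1868), day 35 KO (568), day 21 KO (67.6), day 21 WT (24.2) and day 35 WT (23.8). Ranges of neighbours in that order did not overlap between naive old and naive KO, between day 35 KO and day 21 KO, and between day 21 KO and day 21 WT. The other neighbours overlapped. Clinical scores of EAE, as the authors' sample table gives them, moved with the groups at day 35. They were 1 to 1.5 in the 4 WT libraries, which had the lowest sums, and 2.5 to 3 in all KO and old libraries, so score and group cannot be told apart in the day 35 comparisons. Day 35 old 1 and 2 both had a score of 2.75 and day 35 old 3 had 3, and day 35 KO 4, the highest of its group, had 2.5 against 2.75 to 3 in the others. Day 21 libraries, all with low sums, had 2 to 3 in WT and 2.75 to 3 in KO. RNA integrity numbers at day 35 were 9.38 to 9.78 in WT, 9.55 to 10 in KO and 9.90 to 10 in old.

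**Figure D2:**
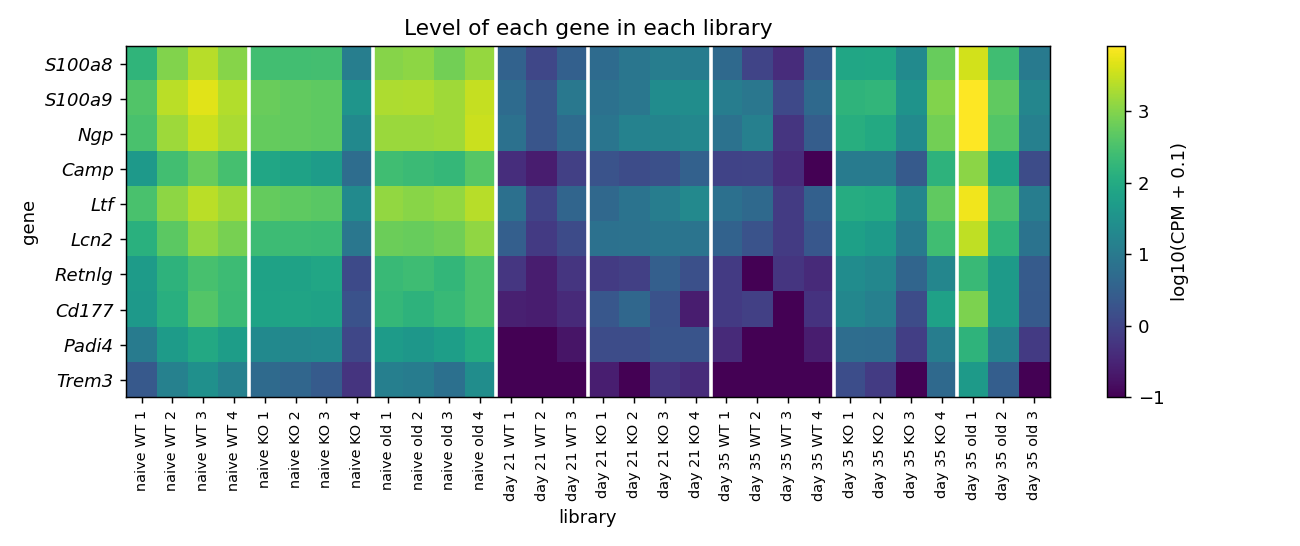
Level of each of the 10 genes (rows) in each of the 30 libraries (columns, groups separated by white lines) as log10(CPM + 0.1). Naive libraries other than KO 4, day 35 KO 4 and day 35 old 1 are bright in most rows, and the day 21 and day 35 WT columns are dark.

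S100a9 was the most abundant transcript of the set per length. S100a8 and S100a9 encode the subunits of calprotectin, small calcium-binding proteins that sequester zinc and manganese and signal through TLR4. On the scale of CPM per kb of exon, the mean over the 30 libraries was 1945 for S100a9 and 705 for S100a8, against 717 for Ngp, 203.1 for Ltf, 171.01 for Camp, 127.2 for Retnlg, 126.5 for Lcn2, 34.2 for Cd177, 6.24 for Trem3 and 4.99 for Padi4. S100a9 stood at 372, 2545, 4919 and 2181 CPM in naive WT 1 to 4, at 609, 538, 486 and 36.7 in naive KO and at 2004, 2075, 1598 and 3066 in naive old. It was at 5.19, 1.90 and 9.35 CPM in day 21 WT and 6.75, 8.72, 24.3 and 25.2 in day 21 KO. At day 35 its levels were 12.2, 8.67, 1.10 and 4.76 CPM in WT, 157, 168.9, 32.7 and 972 in KO and 8042, 525 and 17.9 in old. All S100a9 values of WT mice with EAE lay below every naive library, and the day 35 old values ranged from below naive KO 4 to above naive WT 3.

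S100a8 followed its partner. It was at 165.5, 964, 2449 and 1066 CPM in naive WT, 270, 267, 275 and 12.5 in naive KO, and 80.2, 85.8, 21.97 and 577 in day 35 KO. S100a8 counts per 100 S100a9 counts ranged from 34 to 56.5 in the 12 naive libraries, and were 47.7 in day 35 old 1 and 59.4 in day 35 KO 4. In these 14 libraries the ratio of the subunits varied far less than their levels.

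The secondary granule genes made up most of the other counts. Ngp encodes neutrophilic granule protein, a cystatin-related granule component, Camp the precursor of the antimicrobial cathelicidin peptide, Ltf the iron-binding lactoferrin, and Lcn2 a lipocalin that withholds bacterial siderophores. Ngp was at 321, 1545, 3303 and 1970 CPM in naive WT, 552, 535, 489 and 21.3 in naive KO and 1509, 1465, 1632 and 3338 in naive old. In day 35 libraries it was at 7.01, 13.8, 0.470 and 2.74 CPM in WT, 118, 96.4, 22.7 and 741 in KO and 8136, 397 and 13.5 in old. Day 35 old 3 thus lay below day 35 WT 2 for Ngp. Ltf reached 6509 CPM and Lcn2 2738 CPM in day 35 old 1, against highest naive values of 2535 and 1326 CPM, both in naive WT 3. Camp reached 1149.95 CPM in day 35 old 1 and was not counted in day 35 WT 4.

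The remaining members were lower. Retnlg encodes resistin-like gamma, a secreted protein of mature granulocytes, Cd177 a GPI-anchored glycoprotein of the neutrophil surface, Padi4 the enzyme that citrullinates histones in extracellular traps, and Trem3 a receptor of the TREM family. Retnlg was at 48.7, 149.9, 305.5 and 233 CPM in naive WT, 23.9, 18.6, 3.94 and 17.9 in day 35 KO and 215, 48.1 and 2.46 in day 35 old. It was the only member whose highest library was not day 35 old 1. Its highest value was 335 CPM in naive old 4. Padi4 had 0 counts in 4 libraries, all of day 21 WT or day 35 WT, and Trem3 in 10, including all 7 WT libraries with EAE.

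In WT mice all 10 genes fell between naive and day 21 and between naive and day 35, and no library overlapped between the groups for any of them. Here and below, the share of all genes whose groups did not overlap was not counted, so such counts of members have no background. At day 21 the log2 fold change (log2FC) of S100a9 was -8.77 ± 1.80 (SE, edgeR adjusted p = 0.00154), that of Ngp -8.61 ± 1.87 (edgeR adjusted p = 0.00242) and that of Retnlg -8.85 ± 1.54 (edgeR adjusted p = 0.000357). Of all 13880 genes tested, 12% were lower at day 21 by the same rule, an adjusted p under 0.05, and 10.7% at day 35. For the 8 members with more than 3 counts in each group, log2FC ran from -9.74 to -8.57 at day 21, with a median of -8.82, and from -9.11 to -8.21 at day 35, with a median of -8.64. These medians were the same over all 10 with Padi4 at its count ratio and Trem3 at its bound. Over all genes tested the medians were -0.01 in both comparisons. Trem3 had no count in WT mice with EAE and was at least 117.6-fold lower at day 21 and at least 134.6-fold lower at day 35, set against a floor of 3 counts over the group. Padi4, with 1 count at day 21 and 3 at day 35, was 1209-fold lower (counting interval 217 to 47776) and 461-fold lower (157 to 2238). These calls held for all 10 members when any 1 library was left out.

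Between day 21 and day 35 no member passed the edgeR test in WT mice (0 at an unadjusted p under 0.05 and 0 by DESeq2, 0.0648% of all genes called in either direction). Here and below, shares of all genes called are those of the edgeR adjusted p, and shares called by DESeq2 are not given. Log2FC of the 8 members with more than 3 counts in each group ran from -0.26 to 1.01, on levels of at most 13.8 CPM, with SEs of 1.55 to 4.46, so changes of several fold lay within the error.

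In KO mice most members fell by day 21, and none passed at day 35. Between naive KO and day 21 KO, 9 members fell, all but Trem3, with log2FC from -5.17 for Retnlg to -3.33 for Padi4, while 22.7% of all genes were lower. The log2FC was -4.67 ± 1.31 for S100a9 (edgeR adjusted p = 0.00593) and -5.17 ± 1.16 for Retnlg (edgeR adjusted p = 0.000952). Groups did not overlap for 6 of the 10 (share of all genes not counted). Naive KO 4, with 1.17 CPM of Retnlg and 1.61 of Cd177, lay inside the day 21 KO range for these and for Trem3, and below it for Padi4. At day 35 against naive KO, no member passed the edgeR test (1 at an unadjusted p under 0.05, 0 by DESeq2, 21.4% of all genes called), and log2FC ran from -1.77 for Retnlg to -0.11 for S100a8. In that comparison 4866 of 13880 genes had an unadjusted p under 0.05. Without naive KO 4, 1 member passed.

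From day 21 to day 35, 7 of the 10 members rose in KO mice, against 13.3% of all genes. The median log2FC of the 10 members was 3.87, with S100a8 at 4.37 ± 1.30 (edgeR adjusted p = 0.0171) and S100a9 at 4.34 ± 1.29 (edgeR adjusted p = 0.0173). Cd177, Padi4 and Trem3 did not pass. The count rested on single libraries. It was 0 without day 35 KO 4, where S100a9 had a log2FC of 2.87 (edgeR adjusted p = 0.0872), 1 without day 21 KO 1 or 2, 2 without day 21 KO 3 and 3 without day 21 KO 4. It was 3 when day 35 WT 3 was moved to day 35 KO, where Retnlg had a log2FC of 3.10 (edgeR adjusted p = 0.0738).

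In old mice, day 35 and naive did not separate. No member passed the edgeR test (0 at an unadjusted p under 0.05, 0 by DESeq2, 18.4% of all genes called), and log2FC ran from -1.46 for Retnlg to 0.59 for Camp. The 3 day 35 libraries straddled the 4 naive ones, with day 35 old 1 above all of them for 9 members and day 35 old 2 and 3 below all of them for all 10. Without day 35 old 1, 2 members passed.

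**Figure D3:**
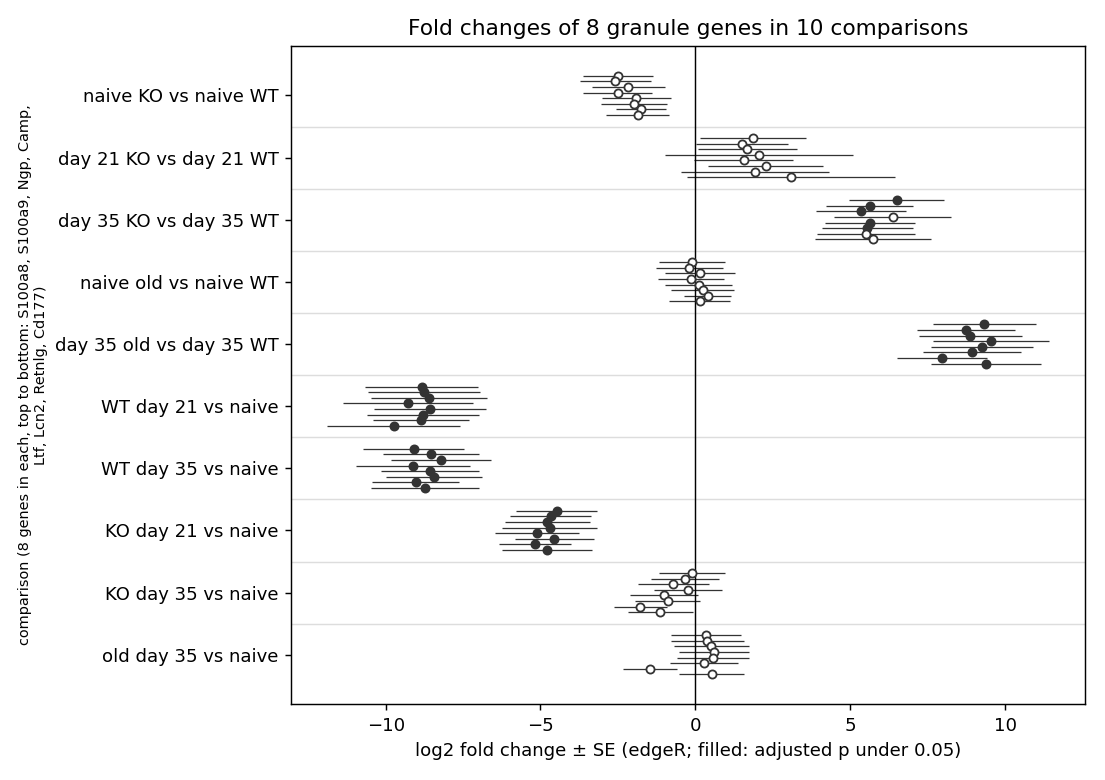
Log2 fold change with its SE for 8 of the genes in 10 pairwise comparisons, fitted in 1 model over 30 libraries (filled points have an edgeR adjusted p under 0.05). WT mice with EAE lie near -9 against naive, KO and old mice at day 35 lie above WT, and the naive comparisons with WT have no filled point. Padi4 and Trem3 are left out because some groups had 0 to 3 counts.

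KO and WT were compared at each time. In naive mice no member passed (0 of 10 by edgeR, 4 at an unadjusted p under 0.05, 0 by DESeq2, 0.288% of all genes called), with log2FC from -2.58 for S100a9 to -1.71 for Padi4. There 1293 of 13880 genes had an unadjusted p under 0.05. Naive WT 1 lay below naive KO 1 to 3 for S100a9, so the groups overlapped. Without naive KO 4 the log2FC of S100a9 was -2.20 (edgeR adjusted p = 0.586). At day 21 no member passed either (0 by edgeR, against 19% of all genes called, 0 at an unadjusted p under 0.05, and 1 by DESeq2). Groups did not overlap for 6 members (share of all genes not counted), with S100a8 at 5.18 to 11.7 CPM in KO and 1.02 to 3.35 in WT. Log2FC ran from 1.51 for S100a9 to 3.08 for Cd177 over the 8 members with more than 3 counts in each group. Padi4, with 1 count in WT, was 36.4-fold higher by counts (counting interval 6.16 to 1475). When the 7 day 21 libraries were fitted alone, 4 members passed. The count filter was rerun in that fit and left some members untested.

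At day 35, 5 of the 10 members were higher in KO than in WT by edgeR, S100a8, S100a9, Ltf, Lcn2 and Ngp, against 1.79% of all genes. Log2FC was 6.50 ± 1.53 for S100a8 (edgeR adjusted p = 0.0304), 5.63 ± 1.40 for S100a9 (edgeR adjusted p = 0.0377) and 5.34 ± 1.45 for Ngp (edgeR adjusted p = 0.0498). The other 5 did not pass, with log2FC of 5.51 for Retnlg, 5.73 for Cd177 and 6.37 for Camp. DESeq2 called all 10, with no share of all genes given. Every KO library lay above every WT library for 9 members, all but Trem3 (share of all genes not counted). Trem3 had no count in day 35 KO 3 or in WT and was at least 15.7-fold higher over the group. Padi4 counts were 53.9-fold higher (counting interval 18.2 to 264).

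The number called at day 35 depended on which libraries entered. It was 0 without day 35 KO 4 or without any one of day 35 WT 1 to 4, 1 without day 35 KO 1, 2 or 3, and 9 without day 35 old 1, which is outside the comparison but shares its estimate of spread. It was 2 or 3 without any one day 21 library, naive KO 1, 2 or 3, naive WT 4, or naive old 1, 2 or 3. With day 35 WT 3 moved to KO, none passed and S100a9 had a log2FC of 4.96 (edgeR adjusted p = 0.121). The direction was the same under each of these settings. Without day 35 KO 4 the log2FC of S100a8 was 4.88 (edgeR adjusted p = 0.0853), that of Ngp 3.71 (edgeR adjusted p = 0.175) and that of Retnlg 5.45 (edgeR adjusted p = 0.101).

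Old and WT mice were not told apart when naive. No member passed (0 by edgeR, 0 at an unadjusted p under 0.05, 0 by DESeq2, 8.18% of all genes called), and log2FC ran from -0.20 to 0.39 with SEs of 0.77 to 1.13. At day 35 all 10 were higher in old mice, against 7.51% of all genes, with log2FC from 7.97 ± 1.45 for Retnlg to 9.56 ± 1.87 for Camp (edgeR adjusted p = 0.0101 for each). Padi4 and Trem3, with at most 3 counts in WT, are left out of that range. Trem3 was at least 133.6-fold higher, and Padi4 counts 467-fold higher (counting interval 159 to 2269). Groups did not overlap for 8 members (share of all genes not counted), and Ngp and Trem3 overlapped through day 35 old 3. Without day 35 old 1 none passed, and log2FC was 5.33 for S100a9 and 6.19 for Retnlg (edgeR adjusted p = 0.317 for each). None passed when the 7 libraries were fitted alone, where the count filter was rerun and left Camp, Padi4 and Trem3 untested. All 10 passed without day 35 old 2 or without day 35 old 3.

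The difference of differences was tested directly. For genotype by day 35 the edgeR test called S100a8 (8.99 ± 1.90 on the log2 scale, edgeR adjusted p = 0.0373) and S100a9 (8.21 ± 1.81, edgeR adjusted p = 0.0478), against 0.238% of all genes in that direction. DESeq2 called all 10, with no share of all genes given. Of the 8 that edgeR did not call, those other than Padi4 and Trem3 ran from 7.26 for Retnlg to 8.88 for Camp. The count was 10 without day 35 old 1, 9 without day 35 old 3, 7 without naive WT 1 and 0 without day 35 KO 4, naive KO 1, 2, 3 or 4, naive WT 2 or 3, day 35 WT 1, 2, 3 or 4, day 21 KO 1, 2 or 4, or day 21 WT 2 or 3. It was 1 without day 21 KO 3, day 21 WT 1, day 35 KO 1 or 2, naive WT 4 or naive old 1, 2 or 3, and 0 with day 35 WT 3 moved to KO. For genotype by day 21 no member passed by edgeR (9.68% of all genes called). There 3 had an unadjusted p under 0.05, and DESeq2 called 4, with no share of all genes given. Differences ran from 3.46 to 4.95 over the 8 members other than Padi4 and Trem3. For age by day 35, all 10 members had an unadjusted p under 0.05, and DESeq2 called 10, with no share of all genes given. No member passed by edgeR (0.0432% of all genes called), with differences of 7.57 to 9.70 over the same 8. There the count was 10 without day 35 old 3, 9 without day 35 old 2, 7 without naive KO 4 and 1 without day 35 KO 4. An unadjusted p under 0.05 was reached by 3610 of 13880 genes for genotype by day 21 and 1630 for age by day 35.

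The members did not rise by one common factor from library to library. Among the 16 libraries with at least 1000 counts of the 10 genes, the share of these counts taken by S100a9 stayed between 22.8% and 34.7%, that of Ngp between 17.6% and 26.4% and that of Ltf between 15.4% and 22.5%. Retnlg varied most, from 0.540% in day 35 KO 4 (95% Wilson interval 0.459 to 0.635) to 4.06% in day 35 KO 1 (3.49 to 4.72). The next lowest of these libraries was day 35 old 1 at 0.679% (0.643 to 0.716), and the 11 naive ones lay between 1.92% and 3.78%. Naive KO 4, with fewer counts, was at 1.06% (0.536 to 2.07). The share of Camp moved the other way within day 35 KO. It was 4.59% (4.34 to 4.84) in KO 4 and 1.89% to 2.13% in KO 1 to 3.

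**Figure D4:**
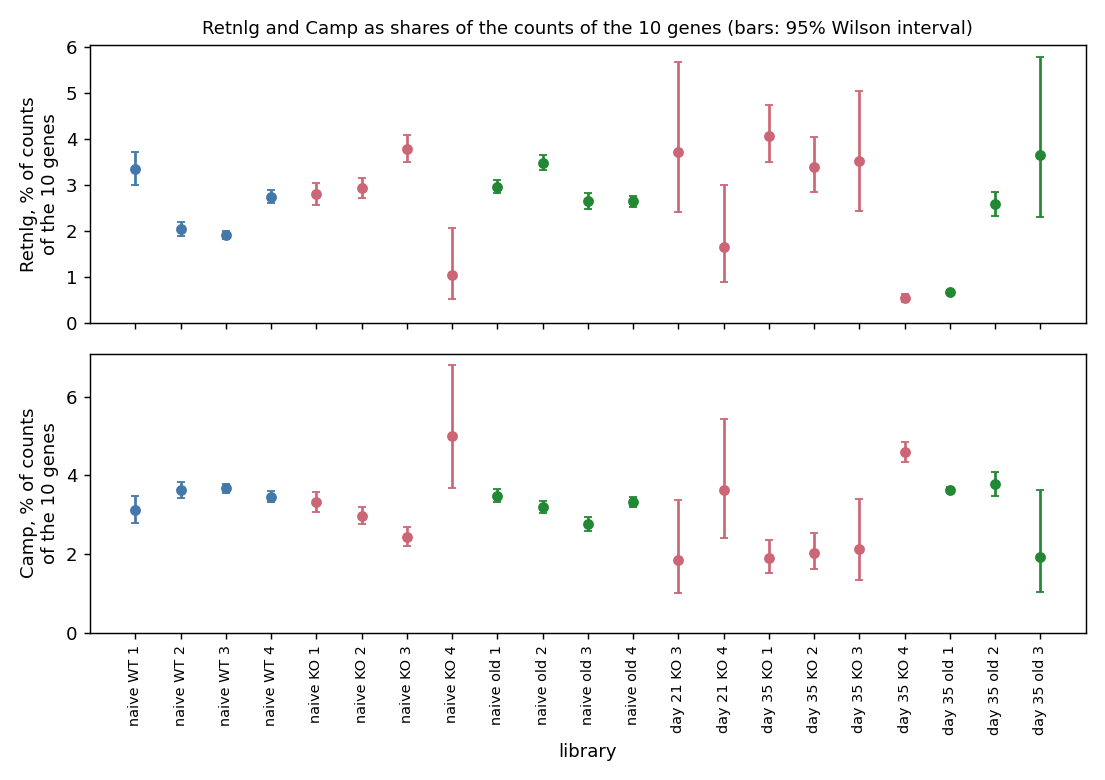
Counts of Retnlg (top) and Camp (bottom) as a percent of the counts of the 10 genes in each library with at least 400 such counts (blue WT, red KO, green old, bars 95% Wilson intervals for counting error only). Retnlg is low in naive KO 4, day 35 KO 4 and day 35 old 1, and Camp is higher in day 35 KO 4 than in day 35 KO 1 to 3.

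Ratios between libraries of one group show the same unevenness in levels. Day 35 KO 4 held 13.6 times the Camp level of day 35 KO 1 (counting interval 10.8 to 17.5), 7.20 times its S100a8, 6.20 times its S100a9 and 4.69 times its Ltf. Its Retnlg level was 0.747 times that of day 35 KO 1 (0.593 to 0.942). Some genes outside the set were looked at after their values were seen. Among them Mpo, myeloperoxidase of primary granules, was 6.91 times as high in day 35 KO 4 (4.03 to 12.7) and Cebpe, the C/EBP factor of granule maturation, 8.02 times (3.21 to 25.8). Mmp9, the gelatinase of the last granules, was at 0.924 times (0.769 to 1.11), and Cxcr2, a chemokine receptor of mature neutrophils, at 1.67 times (0.954 to 3.02).

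Day 35 old 1 against day 35 old 2 gave another order among the higher ratios, with Retnlg again the lowest of the members. Ngp was 20.5 times as high (19.8 to 21.2), Ltf 19.1 times, Camp 16.3 times, S100a9 15.3 times (14.9 to 15.8) and Cebpe 23.6 times (14.05 to 42.7). Mpo was 8.33 times as high, Mmp9 7.72 times, Cxcr2 5.89 times and Retnlg 4.47 times (4.00 to 5.02). Set against naive WT 3, the highest young naive library, day 35 old 1 had 2.57 times the Ltf, 1.63 times the S100a9 and 0.705 times the Retnlg (0.657 to 0.755).

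**Figure D5:**
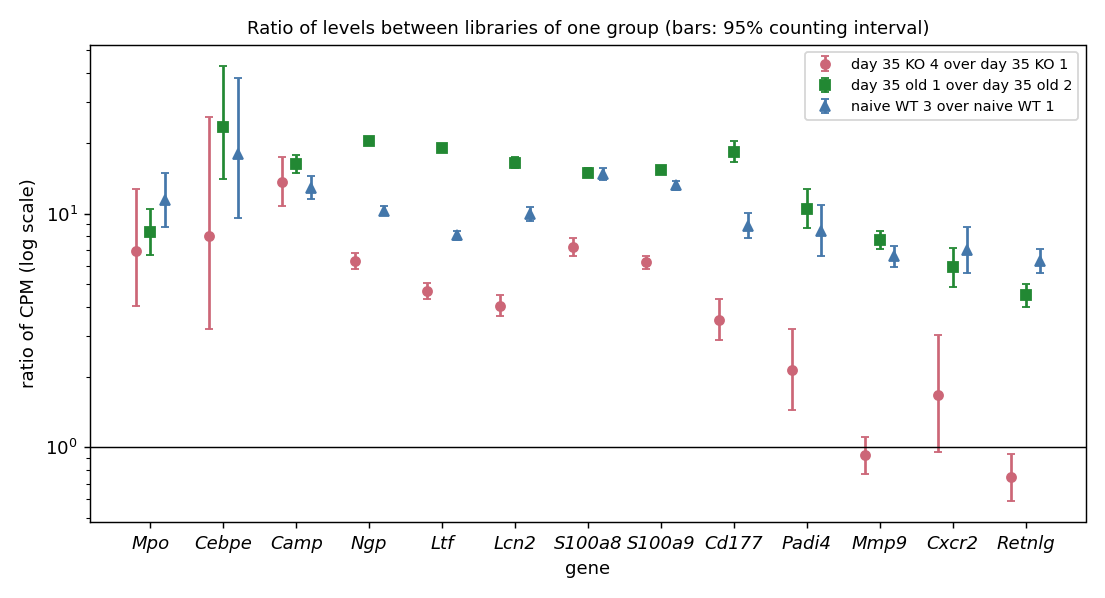
Ratio of CPM between 2 libraries of the same group for 13 genes on a log axis, with 95% counting intervals (red day 35 KO 4 over KO 1, green day 35 old 1 over old 2, blue naive WT 3 over naive WT 1). Within day 35 KO the ratio runs from 13.6 for Camp to 0.747 for Retnlg, and the ratios of Retnlg, Cxcr2 and Mmp9 are the lowest of the 13 in all 3 pairs.

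Naive libraries differed in another respect. Naive old 4 had 1.65 to 3.90 times the members' levels of naive old 3, and 5.95 times its Mpo (5.38 to 6.59), with 506 CPM of Mpo against 57.4 to 85.1 CPM in naive old 1 to 3. In naive KO 4, Mpo was at 6.60 CPM with 29.6 counts per 100 Ltf counts, against 1.49 to 20.95 in the other 11 naive libraries. The members fell away in naive KO 4 while Mpo was 3.41-fold lower than in naive KO 1 (2.44 to 4.85), against 58.7-fold for Retnlg (29.6 to 137) and 24.8-fold for Ltf (21.1 to 29.4).

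At day 21 the few remaining counts did not run in parallel in KO mice. Cd177 was at 2.04, 4.27, 1.65 and 0.148 CPM in day 21 KO 1 to 4, and S100a9 at 6.75, 8.72, 24.3 and 25.2. These Cd177 values rest on 1 to 23 counts.

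The 10 genes outside the set whose log2 CPM correlated best with the members' mean over the 30 libraries were Itgb2l (Pearson r = 0.995), Pglyrp1 (0.992), Wfdc21 (0.990), Mmp9 (0.987), Hdc (0.986), Chil1 (0.982), Rflnb (0.978), Mgam (0.975), Ly6g (0.975) and Slco4c1 (0.974). These are descriptions over libraries that fall into high and low clusters, and carry no p. Ly6g encodes the antigen used in the gate to leave neutrophils out. It was at 44.3 CPM in day 35 old 1, 3.23 to 29.9 in the naive libraries other than KO 4, and 0 to 0.152 in WT mice with EAE.

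Other neutrophil genes were counted from lists. By the edgeR rule, 7.51% of all genes were higher in day 35 old against WT and 1.79% in day 35 KO against WT. In WT against naive, 12% of all genes were lower at day 21 and 10.7% at day 35. These shares stand beside the list counts here and below. Of 18 gelatinase granule and maturation genes, 18 rose in day 35 old against day 35 WT and 18 fell in WT at day 35 against naive, with Mmp8 at a log2FC of 7.34 ± 1.30 and Mmp9 at 7.53 ± 1.40 in old against WT (edgeR adjusted p = 0.0101 for each). None of the 18 passed in day 35 KO against WT, where their median log2FC was 4.44. Of 6 primary granule genes, Mpo, Ctsg, Elane and Prtn3 rose in day 35 old against WT, with Mpo, at 3 counts in WT, 284-fold higher by counts (counting interval 96.8 to 1381, edgeR adjusted p = 0.0142), and 5 fell in WT at each EAE time. Of 10 surface receptors of blood neutrophils, 6 rose in day 35 old against WT, among them Cxcr2 at 6.09 ± 1.20 and Fpr1, a formyl peptide receptor with 1 count in WT, 205.4-fold higher by counts (counting interval 36.4 to 8164, edgeR adjusted p = 0.0101 for each). Csf3r, a list member, rose by 0.54 ± 0.12 in WT at day 21 (edgeR adjusted p = 0.00207), the opposite way to Cxcr2, which fell by 6.79 (edgeR adjusted p = 0.000948). Of the 6 stefin A cluster genes only Stfa2l1 was counted often enough to be tested.

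A further list held other genes of the S100 family and receptors of calprotectin. Of its 8 genes, 4 rose in day 35 old against WT, S100a6, S100a11, S100a10 and Emb, with S100a6 at 6.08 ± 1.29 (edgeR adjusted p = 0.0104). In day 21 KO against WT 5 of these 8 rose, as did 1274 of all 13880 genes. The list median was 3.41, while S100a8 and S100a9 did not pass there. For 6 of the 8 the genotype by day 21 difference passed, against 9.68% of all genes in either direction. S100a10 was among them, at 3.16 ± 0.75 (edgeR adjusted p = 0.0107).

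Markers of other cells moved with the members in part, and their part in these results was not tested. The 10 monocyte markers, some of which, Chil3 among them, are also neutrophil list genes, summed to 4505 CPM in day 35 old 1 against 455 and 654 in day 35 old 2 and 3. They summed to 959 to 1371 in day 35 KO, 100 to 309 in day 35 WT, 205.98 to 1786 in naive WT, 35.05 to 488 in naive KO and 889 to 1371 in naive old. Their highest group by median was day 21 KO, at 2174 to 3007 CPM, where the 10 members summed to at most 89.9 CPM. Day 21 WT was at 176 to 493 CPM. The list had 7 of 10 genes higher in day 35 old than in WT (7.51% of all genes) and 7 lower in WT at day 35 than naive (10.7%). It had 0 called in day 35 KO against WT.

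Border macrophage markers, which include F13a1 of the monocyte list, also moved with the members in part. The 8 markers summed to 424 CPM in day 35 old 1 against 61.1 and 49.1 in day 35 old 2 and 3, and to 36.2 CPM in naive KO 4 against 244 to 300.95 in naive KO 1 to 3. They were at 284 to 411 CPM in naive WT and 333 to 388 in naive old, at 33.7 to 102.7 in day 21 WT and 19.1 to 97.5 in day 35 WT, and at 60.7 to 119 in day 35 KO with the highest value in KO 4. In day 21 KO, where the members were low, they were at 360 to 465 CPM. Against naive KO, 2 of the 8 were called higher there and 2 lower, as were 3123 and 3149 of all 13880 genes. In WT mice 6 of the 8 fell at each EAE time, with Lyve1, a hyaluronan receptor of perivascular macrophages, at -5.84 ± 0.85 at day 35 (edgeR adjusted p = 8.94e-05). In day 35 KO against WT and in day 35 old against WT 1 of the 8 rose, Siglec1 in both.

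Markers of the neural cells were highest in day 35 KO 4, the library with the highest member sum of its group. There the 6 astrocyte genes summed to 472 CPM, the 6 oligodendrocyte genes to 400 and the 6 neuron genes to 70.01, against 302 to 390, 152.1 to 240.1 and 0.986 to 32.7 in day 35 KO 1 to 3. In day 35 old 1, with the highest member sum of all, these lists were lower than in day 35 old 2 and 3, at 152.2, 120.4 and 3.06 CPM against 359 to 367, 247 to 282 and 14.3 to 17.4. None of these 3 lists had a gene called in day 35 KO or old against WT. From day 21 to day 35 in KO mice 2 of 6 astrocyte, 2 of 5 oligodendrocyte and 5 of 5 neuron genes tested rose, against 13.3% of all genes. T and NK cell genes summed to at most 22.6 CPM in any library, with the highest values in day 21 KO.

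Eosinophil genes reached their highest levels in naive WT and naive old mice and were ordered differently from the members at day 35. The 7 markers summed to 72.5 to 340 CPM in naive WT, 29.2 to 66.8 in naive KO, 162.97 to 599.6 in naive old, 51.6 to 62.6 in day 21 WT, 50.6 to 56.3 in day 21 KO, 30.9 to 39.3 in day 35 WT and 31.9 to 41.96 in day 35 KO. Naive KO and day 21 WT overlapped in this sum but not in Prg2, the eosinophil major basic protein. Prg2 was at 0.733 to 20.9 CPM in naive KO and 0 to 0.586 in day 21 WT. In WT at day 21, 6 of the 7 markers fell and 1 rose, as did 1669 and 1320 of all 13880 genes. Prg2 fell by 9.10 (edgeR adjusted p = 0.000225). In day 35 old against WT 4 of the 7 rose, the same way as the members, with a list median of 4.14 when genes at 0 to 3 counts in WT were set at their count ratio or bound. Prg2, with 2 counts in day 35 WT, was 174-fold higher by counts (counting interval 47.7 to 1443). In day 35 old 1, 2 and 3 the markers summed to 48.0, 98.1 and 37.6 CPM. Prg2 was at 3.38 CPM in day 35 old 1 and 31.1 in day 35 old 2, 0.109 times (0.0662 to 0.170), where S100a9 was 15.3 times as high. Prg2 was at 0 in 9 of the 30 libraries and Epx, eosinophil peroxidase, in 11.

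Globin and other erythroid genes, markers of blood, were ordered differently from the members. The 7 markers summed to 216 CPM in day 35 KO 4 and 56.9 to 125 in day 35 KO 1 to 3, but to 42.6, 53.0 and 42.3 CPM in day 35 old 1, 2 and 3. Naive WT ranged from 5.15 to 102.97 CPM with its highest value in naive WT 2, and day 21 WT from 27.0 to 83.2 CPM although the members there were at most 25.8 CPM. Of the 6 erythroid genes tested, 6 rose in KO from day 21 to day 35, against 13.3% of all genes. Alas2, the first enzyme of erythroid haem synthesis, was at 4.95 ± 0.78 (edgeR adjusted p = 4.29e-05). In day 35 KO against WT 1 of the 6 rose, Hbb-bt at 2.50 ± 0.67 (edgeR adjusted p = 0.0439), and 0 passed in day 35 old against WT.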

How the data were processed

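RNA was counted in 30 libraries of sorted mouse microglia. The deposited table holds raw counts per Ensembl gene, made by the authors with CASAVA, bcl2fastq and STAR on GRCm38, per the submitters' processing notes. The counter, its strand setting, tool versions and gene annotation: not given in the sources used here. Per the file headers, the deposited sample table adds an EAE score and an RNA integrity score. Column names are not sample titles: wells were counted down the plate's columns and joined to title numbers, an inference in which 30 of 30 agreed in group. Of 32 count columns, 2 matched no sample and were not used. Replicate numbers follow accession order.

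GENCODE M21 gave coordinates, and symbols for 45229 of 46078 genes. The filter filterByExpr (at least 10 counts, total 15) kept 13880 genes, and TMM set the scale. edgeR 4.0.16 in R 4.3.3 fitted 1 mean per group over the 30 libraries (glmQLFit, robust, 22 residual degrees of freedom). Each contrast was given a quasi-likelihood F test, adjusted over all genes by Benjamini and Hochberg and called under 0.05. The SE given with an edgeR log2FC was derived from this test, as the absolute log2FC over the square root of F. The method was tested on simulated data. DESeq2 1.42.0, library totals alone, no filter, the compared groups alone, a block by i5 index, moving 1 library with conflicting labels and leaving out each library were alternatives. The members were named in every library. Of each list, up to 4 called genes with the lowest adjusted p could be named, and of the genes outside the set the 10 with the highest correlation (log2 CPM, prior count 2). Genes named beyond this are said to be so. The members and lists were chosen with earlier results of these data known. A gene with 1 to 3 counts in a group is given as a ratio of summed scaled counts with an exact interval, and one with 0 as a bound. Intervals and floors cover counting error only.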

Additional observations from a re-analysis of the deposited data

Results flagged for a closer look

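Libraries stood apart from the rest of their group, by the gap of the highest or lowest value over the group's range (Dixon's 95% critical value), in 14 of 65 groups of values tested. Chance flags about 1 in 20, and the genes are not independent of one another, since 1 library gives most of its flags at once.

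Naive KO 4 was the lowest of its group for S100a8 (12.5 CPM), Ngp (21.3), Lcn2 (8.65), Retnlg (1.17), Cd177 (1.61) and Padi4 (1.03), and for the sum (111 CPM). Naive old 4 was the highest of its group for Ngp (3338 CPM) and for the sum (12668 CPM). Day 35 KO 4 was the highest of its group for S100a8 (577 CPM), S100a9 (972), Ngp (741) and Camp (151.9), and for the sum (3312 CPM). Retnlg in the same library, at 17.9 CPM, lay inside the range of the other day 35 KO libraries.

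The change from naive to day 35 differed between KO and WT, by the edgeR test of the difference itself, for S100a8 (8.99 on the log2 scale) and S100a9 (8.21). Neither passed without day 35 KO 4, among other single libraries left out, or with day 35 WT 3 moved to day 35 KO.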

How the results depend on the processing

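In 4 comparisons in which no member was called, log2 fold changes took the other sign under at least 1 alternative: naive old against WT for 9 members, old day 35 against naive for 9, WT day 35 against day 21 for 8 and KO day 35 against naive for 3. In the other 11 comparisons no member's log2 fold change took the other sign under any alternative. The lower levels of all 10 members in WT mice at day 35 than naive were called under every setting, and those at day 21 for 9 or 10. No member was called in naive KO against WT, naive old against WT or WT day 35 against day 21 under any setting. The other counts of members called moved. Counting error limits the WT libraries with EAE, where 3 counts of a gene can be the whole group.

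For day 35 KO against WT, 5 in the report, the count was 3 with library totals only, 0 with no filter on low counts, 1 with a replicate block (i5 index), 0 with day 35 WT 3 moved to KO, 1 with only the groups compared and 10 by DESeq2. For KO day 35 against day 21, 7 in the report, it was 3 with no filter, 3 with the replicate block and 3 with that library moved. For the genotype by day 35 difference, 2 in the report, it was 1 with library totals only, 0 with no filter, 0 with the replicate block, 0 with that library moved and 10 by DESeq2. For day 35 old against WT, 10 in the report, it was 0 with only the groups compared. For day 21 KO against WT, 0 in the report, it was 4 with only the groups compared and 1 by DESeq2. With only the groups compared the count filter was rerun, and it left some members untested in each comparison where that setting is given. DESeq2 also called 4 for genotype by day 21 and 10 for age by day 35, both 0 in the report. The causes of these moves were not tested.

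Leaving out 1 library at a time gave counts of 0 to 9 for day 35 KO against WT, 0 to 10 for day 35 old against WT, 0 to 8 for KO day 35 against day 21, 0 to 1 for KO day 35 against naive, 8 to 10 for KO day 21 against naive, 0 to 2 for old day 35 against naive, 0 to 10 for genotype by day 35 and 0 to 10 for age by day 35. Libraries sharing an i5 index do not pair: their deviations from the group means had a mean correlation of -0.01 over 98 pairs, with 16 of them over 0.1.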
